A study of Mus musculus with 36 samples.

Results

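The genes described here are 30 genes of myelin and of mature oligodendrocytes, chosen by symbol from a fixed list and followed in all 36 libraries of a bulk RNA-seq study of the mouse optic nerve and retina. The count table holds 55487 genes, so the members are 30 of 55487. The mice were young adult C57BL/6 animals that were naïve, had a crush of the optic nerve (3 days, 3 D, or 2 weeks, 2 W, before collection), or had microbeads injected into the eye to raise its pressure, here called glaucoma (3 D, 2 W or 6 weeks, 6 W). From each mouse the study dissected the retina, the unmyelinated optic nerve just behind the eye (UON) and the myelinated optic nerve (MON) posterior to it, and discarded the transition zone between them. RNA of 2 mice of the same sex was pooled, so each of the 18 groups held 1 female pool and 1 male pool, and p-values measure the spread between such pools. The labels name no transgene, and naïve mice were the only controls, shared by every comparison with naïve tissue.

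Oligodendrocytes wrap axons of the central nervous system in myelin, a compacted stack of lipid-rich membrane. In the mouse optic nerve they cover the nerve behind the eye but not the retina or the unmyelinated nerve head, where astrocytes ensheath bare axons. Their program is driven by a few transcription factors, and its products include proteins that compact the membrane, surface and cytoskeletal proteins of the sheath, enzymes that build myelin lipids, and connexins that couple glial cells.

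The libraries held between 16158723 and 78054205 estimated counts. The 8 photoreceptor markers summed to 53330 CPM (counts scaled to library size) or more in every retina and to 320.1 CPM or less in every nerve library, and the members themselves made up 12.03% and 13.52% of all counts in naïve MON, 2.43% and 2.99% in naïve UON, and 0.142% or less in every retina. The photoreceptor markers thus separated retina from nerve as labelled. Between UON and MON, fibroblast markers differed besides the oligodendrocyte genes themselves. They summed to 1885 CPM or more in every UON library and to 1718 CPM or less in every MON library. The labels of UON and MON were not tested further. A library stood apart in UON: the male pool of crush 2 W had 0.534% of its counts on the members, against 2.84% in the female pool of the same group. All values below are given with that library, and the effect of leaving it out is stated where it changes a call.

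**Figure D1:**
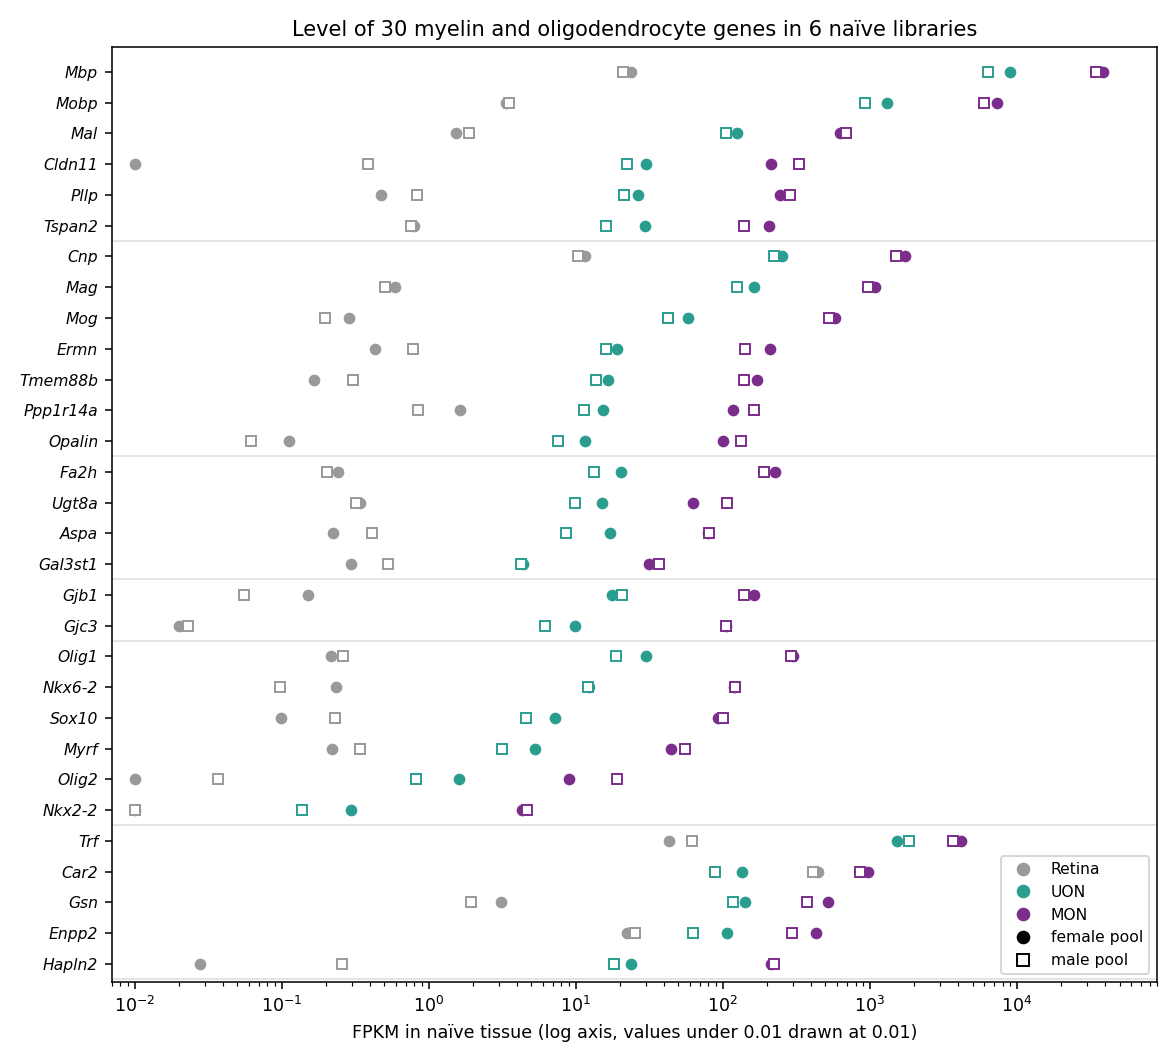
Level of each of the 30 genes in the 6 naïve libraries, in FPKM on a log axis, by role (membrane and junction proteins, surface and cytoskeletal proteins, lipid enzymes, connexins, transcription factors, and secreted, enzyme and nodal proteins). Filled circles are female pools and open squares male pools. Purple MON points lie to the right of green UON points for every gene, and Car2 is the gene whose retinal points lie above its UON points.

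In naïve nerve the members followed the boundary of myelination. Of the 30 genes, 29 were called higher in MON than in UON (edgeR's quasi-likelihood test, with a log2 difference of more than 1 and a Benjamini-Hochberg adjusted p below 0.05), where 4.8% of the 23685 genes tested were called higher and 9.63% in either direction. The median log2 fold change over the members was 3.36, against 0.06 over all genes tested. Both MON pools lay above both UON pools for all 30 members, where 27.2% of all genes did. The member not called was Trf, which encodes the iron carrier transferrin. It measured 12480 CPM in the female and 8265 CPM in the male MON pool and 4338 and 5731 CPM in the UON pools, a log2 fold change of 1.07 ± 0.33 (SE, adjusted p = 0.0947, n = 2 pools a group).

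The median step differed by role, but the roles hold 2 to 7 genes and their order was not tested. The 6 transcription factors had the largest median (3.78), followed by the 7 surface and cytoskeletal proteins (3.44), the 2 connexins (3.37), the 4 lipid enzymes (2.97), the 6 membrane and junction proteins (2.71) and the 5 secreted, enzyme and nodal proteins (2.01). Nkx2-2, a factor of the oligodendrocyte lineage, measured 12.5 and 11.3 CPM in the MON pools and 0.789 and 0.212 CPM in the UON pools, a 27.9-fold difference (log2 4.80 ± 0.76, adjusted p = 0.0148). Its UON values rested on 36 counts in the female and 9 in the male pool. Sox10, which switches on myelin genes, measured 351 and 330 CPM against 23.5 and 16 CPM, a 17.5-fold difference (log2 4.13 ± 0.38, adjusted p = 0.00171). For both factors the groups were far apart, with no UON pool near a MON pool.

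The most abundant structural gene had one of the smaller steps. Mbp, which encodes myelin basic protein, measured 101900 and 77590 CPM in naïve MON and 20330 and 15520 CPM in naïve UON, 5.10-fold higher in MON (log2 2.35 ± 0.33, adjusted p = 0.00618). Gsn (gelsolin, an actin-severing protein) and Enpp2 (autotaxin, a secreted phospholipase) had steps of 3.50-fold and 4.03-fold. Besides the members, the list of 35 other oligodendrocyte genes had 25 called higher and 1 called lower in MON, led by Zfp488 (log2 4.31 ± 0.46), with Tcf7l2 as the gene called lower (-1.27 ± 0.28). The 14 markers of oligodendrocyte precursors had 8 higher and 1 lower, and the 25 genes of cholesterol and sphingolipid synthesis had 18 higher.

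The step between the nerve regions was present in every mouse pool, injured or not. In all 12 pairs of UON and MON from the same mice, all 30 members were lower in UON. The share of all genes lower in UON in every pair was not computed. The summed level of the members in UON was 19.3% of that in MON in the naïve female pool and 21.7% in the male pool. After crush it was 25.6% and 27.5% at 3 D, and 61.0% (female) and 9.15% (male) at 2 W. In glaucoma it was 41.2% and 14.7% at 3 D, 14.3% and 17.4% at 2 W, and 14.6% and 28.8% at 6 W, so the ratio differed widely between the pools of a group.

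Per unit of transcript length, Mbp led in both nerve regions. In naïve MON it reached 36550 ± 2908 FPKM (mean ± SD, n = 2), followed by Mobp (6692 ± 986), a second structural protein of compact myelin, and Trf (3922 ± 373). Cnp, an enzyme of the non-compacted sheath, stood at 1624 ± 170 FPKM and Mag, an adhesion protein facing the axon, at 1031 ± 81.2. Between neighbours in this order, Car2 (916 ± 84.0) and Mag differed by about the spread of the pools. The lowest members were the factors Olig2 (14.1 ± 7.11 FPKM) and Nkx2-2 (4.50 ± 0.278), so levels spanned from 4.50 to 36550 FPKM.

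In naïve UON the order was similar at lower levels, with Mbp at 7675 ± 1861 FPKM, Trf at 1698 ± 222 and Mobp at 1118 ± 273, so that Trf and Mobp changed places. Naïve retina had another order. Car2 (carbonic anhydrase 2, which Müller glia also make) led at 428 ± 21.7 FPKM, ahead of Trf (52.8 ± 13.5), Enpp2 (23.9 ± 2.29) and Mbp (22.4 ± 1.98). Between 15 and 16 of the 30 members were below 1 CPM in the naïve retinas, and Nkx2-2 had no count in any of the 12 retina libraries, where a count of 0 allows up to 3 counts a library.

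Against retina, 30 of 30 members were called higher in MON, where 16.7% of all genes were, and 29 of 30 in UON, where 18.2% were. Car2 was the member called lower in UON than in retina (13.5% of all genes), at 263 and 200 CPM in UON and 697 and 679 CPM in retina (log2 -1.55 ± 0.25, adjusted p = 0.00277). Car2 also had the smallest difference between MON and retina (log2 1.61 ± 0.25, adjusted p = 0.00253). Olig2, Sox10, Mog and the connexins Gjb1 and Gjc3 were each below 1 CPM in both naïve retinas.

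Since many members move together, the bases before their start sites are shown for 3 genes of the sheath and its surroundings: Hapln2, which encodes a link protein of the nodal matrix, Mag, and Mog, which encodes an outermost surface protein of myelin. They come from the RefSeq promoter table (GRCm38.p6), run 5′ to 3′ on the minus strand, and hold no base of the annotated gene. The Mag window precedes the most upstream of its RefSeq starts, which lies before the first annotated base of the gene. Capitals mark the motifs searched on both strands, which were CTGGCAC for MYRF, AACAAT and ACAAAG for SOX factors and the E-box CAGCTG. Hapln2 spans chr3:88027584-88027761, Mag chr7:30914923-30915172 and Mog chr17:37023399-37023648.
Hapln2: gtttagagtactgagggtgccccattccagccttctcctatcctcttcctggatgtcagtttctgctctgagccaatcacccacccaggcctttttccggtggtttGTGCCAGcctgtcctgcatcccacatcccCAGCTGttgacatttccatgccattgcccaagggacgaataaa
Mag: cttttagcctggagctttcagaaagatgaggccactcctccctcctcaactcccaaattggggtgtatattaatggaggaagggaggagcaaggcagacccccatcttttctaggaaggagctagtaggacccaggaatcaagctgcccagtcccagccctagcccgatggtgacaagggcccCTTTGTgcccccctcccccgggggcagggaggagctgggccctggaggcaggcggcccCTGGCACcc
Mog: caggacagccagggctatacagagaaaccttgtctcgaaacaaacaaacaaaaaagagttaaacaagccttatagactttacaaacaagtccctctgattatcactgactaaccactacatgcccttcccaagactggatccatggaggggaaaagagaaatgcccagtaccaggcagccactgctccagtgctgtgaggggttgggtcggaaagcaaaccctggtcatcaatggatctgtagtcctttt

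The Hapln2 window held a MYRF motif 144 bases and an E-box 115 bases before the RefSeq start, with a SOX motif 57 bases before it in the part not printed, the Mag window a MYRF motif 9 bases and a SOX motif 67 bases before it, and the Mog window none of these letters. RefSeq promoters were at hand for 22 of the 30 members, with 32 start sites. Over the 250 bases before each start, the MYRF motif occurred at 4 of the 32 starts and at 4.19% of all 32851 promoters. AACAAT occurred at 5 and 9.42%, ACAAAG at 8 and 16.5%, and CAGCTG at 4 and 13.0%. Overlapping Mag windows hold the same MYRF and SOX motifs, so these are counted more than once. By gene, the motifs were found in 3, 5, 6 and 3 of the 22, in the same order. These counts describe letters only.

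**Figure D2:**
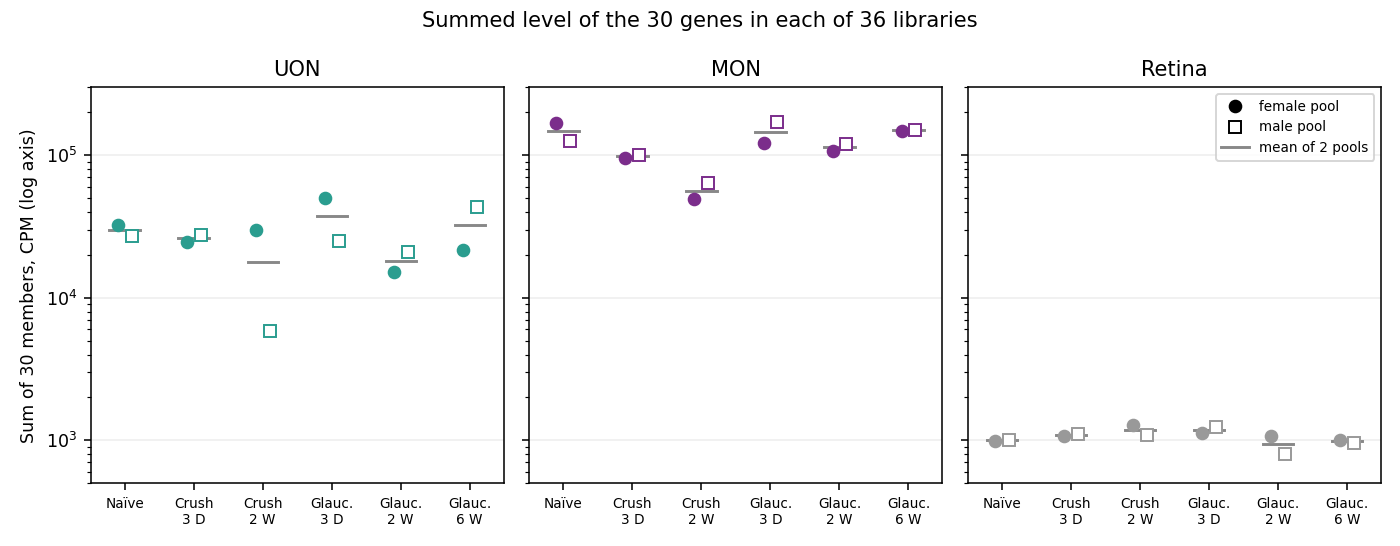
Sum of the 30 genes in CPM (log axis) in each of the 36 libraries, by tissue and condition. Filled circles are female pools, open squares male pools and grey lines the mean of the 2 pools. The crush 2 W pools are the lowest of MON, the male crush 2 W pool is the lowest of UON, and the retinas lie between 796.9 and 1281 CPM.

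Nerve crush severs the axons of retinal ganglion cells, which the myelin of MON surrounds. At 2 W after crush all 30 members had a negative log2 fold change against naïve MON, with a median of -1.26 against 0.05 over all genes. The summed level was 167900 (female) and 125800 CPM (male) in naïve MON and 49180 and 63830 CPM at crush 2 W, and as a share of all counts the members made up 13.52% and 12.03% in naïve MON and 5.07% and 6.09% at crush 2 W. Both crush pools lay below both naïve pools for 29 of 30 members, where 25.7% of all genes did. In bulk tissue, fewer oligodendrocytes and less RNA in each of them cannot be told apart.

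The test called 5 of the 30 members lower at crush 2 W, where 0.595% of the 19988 genes tested were called lower and 2.72% in either direction. They came from different roles. Fa2h, which adds the hydroxyl group of myelin galactolipids, measured 726 and 527 CPM in the naïve female and male pools and 144 and 191 CPM at crush 2 W, a log2 fold change of -1.82 ± 0.32 (adjusted p = 0.0380). Hapln2 measured 543 and 504 CPM in naïve MON and 146 and 155 CPM at crush 2 W (-1.70 ± 0.29, adjusted p = 0.0349). Neither gene had a crush pool near the naïve range.

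Mog measured 1372 and 1079 CPM in naïve MON and 339 and 376 CPM at crush 2 W (-1.67 ± 0.32, adjusted p = 0.0449). Myrf, the membrane-bound factor that mature oligodendrocytes need to express myelin genes, measured 305 and 323 CPM and then 93.7 and 91.5 CPM (-1.67 ± 0.27, adjusted p = 0.0341). Gjc3, a connexin of oligodendrocytes, measured 518 and 413 CPM and then 132 and 146 CPM (-1.63 ± 0.30, adjusted p = 0.0403). All 5 genes fell by 3.11-fold to 3.52-fold, and for each the 2 crush pools differed less from each other than from either naïve pool. In the coordinates of the files (GRCm38), Fa2h lies at chr8:111345135-111393824, Hapln2 at chr3:88021750-88027583, Mog at chr17:37010743-37023398, Myrf at chr19:10208272-10240748 and Gjc3 at chr5:137953461-137963098.

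**Figure D3:**
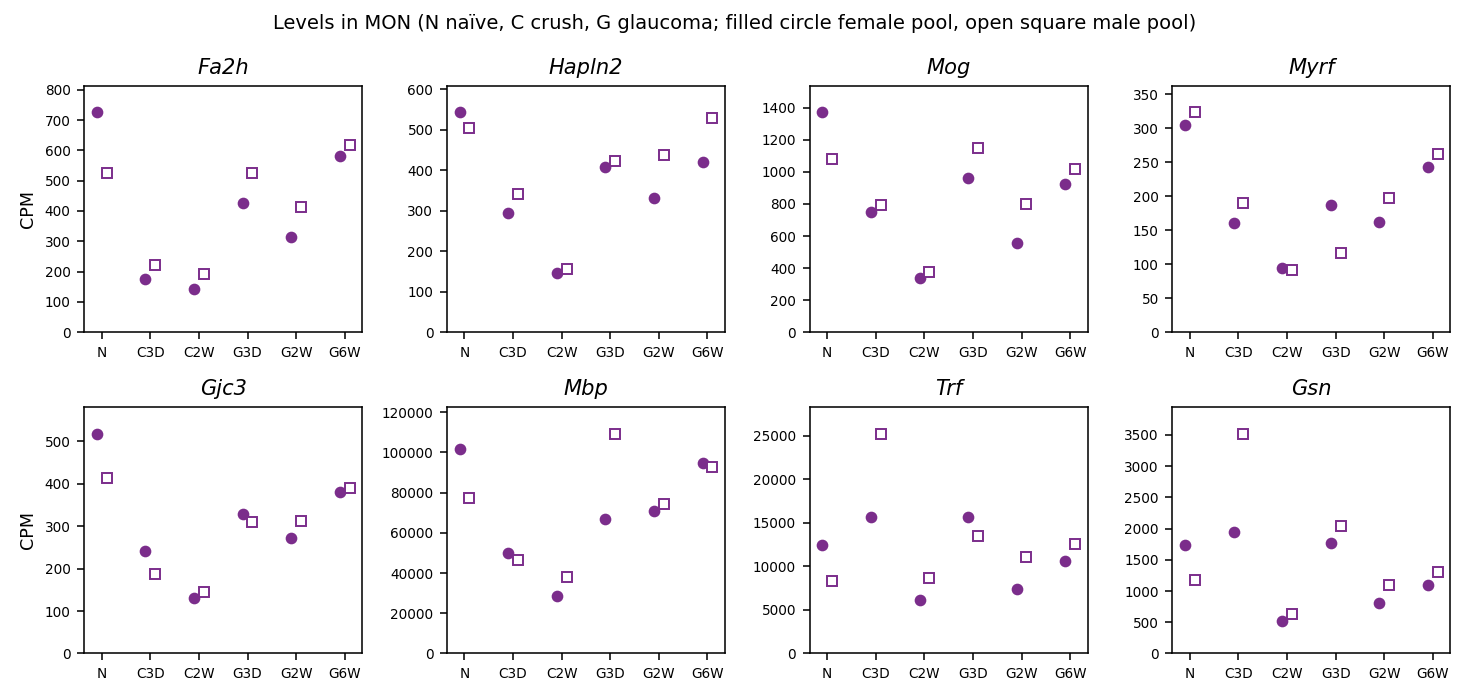
CPM of 8 genes in the 12 MON libraries by condition (N naïve, C crush, G glaucoma, 3 D, 2 W, 6 W), linear axes from 0, with filled circles for female and open squares for male pools. Fa2h, Hapln2, Mog, Myrf and Gjc3 have their lowest pool at crush 2 W, Mbp follows with more spread, and Trf and Gsn have their highest pool, 25240 and 3522 CPM, in the male pool of crush 3 D.

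Among the members that missed the threshold, some had larger estimates with more spread. Mal, a lipid-raft protein of compact myelin, measured 2437 and 2303 CPM in naïve MON and 475 and 626 CPM at crush 2 W (-2.0 ± 0.42, adjusted p = 0.0539). Olig2 had -1.92 ± 0.41 (adjusted p = 0.0573) and Cldn11, the claudin that seals the myelin lamellae, -1.74 ± 0.36 (adjusted p = 0.0520). Mbp measured 28790 and 37930 CPM at crush 2 W against 101900 and 77590 CPM in naïve MON (-1.32 ± 0.49, adjusted p = 0.237). The estimates closest to 0 were those of Nkx2-2 (-0.39 ± 0.35), Trf (-0.42 ± 0.47) and Car2 (-0.76 ± 0.38), and of these only Trf had overlapping groups, with a crush pool of 8667 CPM above the naïve male pool at 8265 CPM.

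The remaining members lay between these values. The other surface and cytoskeletal proteins were Mag (-1.21 ± 0.37), Cnp (-1.28 ± 0.39), Opalin (-1.33 ± 0.46), the actin-binding Ermn (-1.02 ± 0.38), Tmem88b (-1.24 ± 0.33) and the phosphatase inhibitor Ppp1r14a (-1.26 ± 0.26). The other membrane proteins were Mobp (-1.70 ± 0.44), plasmolipin, Pllp (-0.92 ± 0.29), and the tetraspanin Tspan2 (-1.01 ± 0.36). The other lipid enzymes were Ugt8a (-1.04 ± 0.52), which makes galactosylceramide, Gal3st1 (-1.24 ± 0.28), which turns it into sulfatide, and Aspa (-1.23 ± 0.29), which frees acetate for lipid synthesis. The factors Sox10 (-1.29 ± 0.30), Olig1 (-1.21 ± 0.30) and Nkx6-2 (-1.05 ± 0.27), the connexin Gjb1 (-0.99 ± 0.34), Enpp2 (-1.27 ± 0.38) and Gsn (-1.25 ± 0.41) complete the list. Of all 30 members, 26 had an unadjusted p under 0.05 in the lower direction, against 5.99% of all genes.

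The number of members called rested on single libraries and on the model. With no naïve female pool, or with no naïve male pool, 0 of 30 were called, without the male crush pool 18 were, and without the female crush pool 7 were. With no term for the sex of the pool 14 were called lower, and DESeq2 called 25 lower, where it called 3.07% of all genes lower. Every one of these fits kept a negative median, between -1.05 and -1.51. The share of all genes called is given here for DESeq2 alone. The counts from the other fits therefore cannot be read as a result about the members.

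Other gene lists moved beside the members at crush 2 W in MON. Of the 25 genes of cholesterol and sphingolipid synthesis, whose products supply the myelin membrane, 9 were called lower, among them Fdft1 (-2.72 ± 0.43, adjusted p = 0.0308), which makes squalene. Of the 35 other oligodendrocyte genes 1 was called lower, Tubb4a (-2.03 ± 0.40, adjusted p = 0.0474), a tubulin abundant in oligodendrocytes, and their median was -0.88. The 14 precursor markers had a median of -0.02, and Pdgfra, their defining receptor, measured 92.3 and 59.9 CPM in naïve MON and 62.8 and 53.4 CPM at crush 2 W.

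Markers of microglia moved in the other direction. Of 11 markers, 5 were called higher at crush 2 W, where 2.13% of all genes were, and their summed level was 1901 and 1936 CPM in naïve MON and 9028 and 5420 CPM at crush 2 W. None of the 11 was at 0 in any of these 4 libraries. Their part in the members' values was not tested. Scaling the libraries by all genes except the members left the same 5 members called and a median of -1.26. Schwann cells of peripheral nerve make several of the same myelin proteins, and 7 of their 10 markers passed the low count filter in MON. Their summed level was 175.1 and 87.57 CPM in the naïve pools and 146.3 and 193.1 CPM at crush 2 W, so the groups overlapped, and their median log2 fold change was 0.28. One of them was called higher, Egr2, a transcription factor that Schwann cells need for myelination, at 0.541 and 0.589 CPM in naïve MON and 20.6 and 13.1 CPM at crush 2 W (5.01 ± 0.61, adjusted p = 0.0166). Dhh measured 64.1 and 44.2 CPM in naïve MON and 67.7 and 102 CPM at crush 2 W, and Prx stayed at 1.67 CPM or less in the naïve and crushed MON libraries. The part of these markers in the members' values was not tested.

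**Figure D4:**
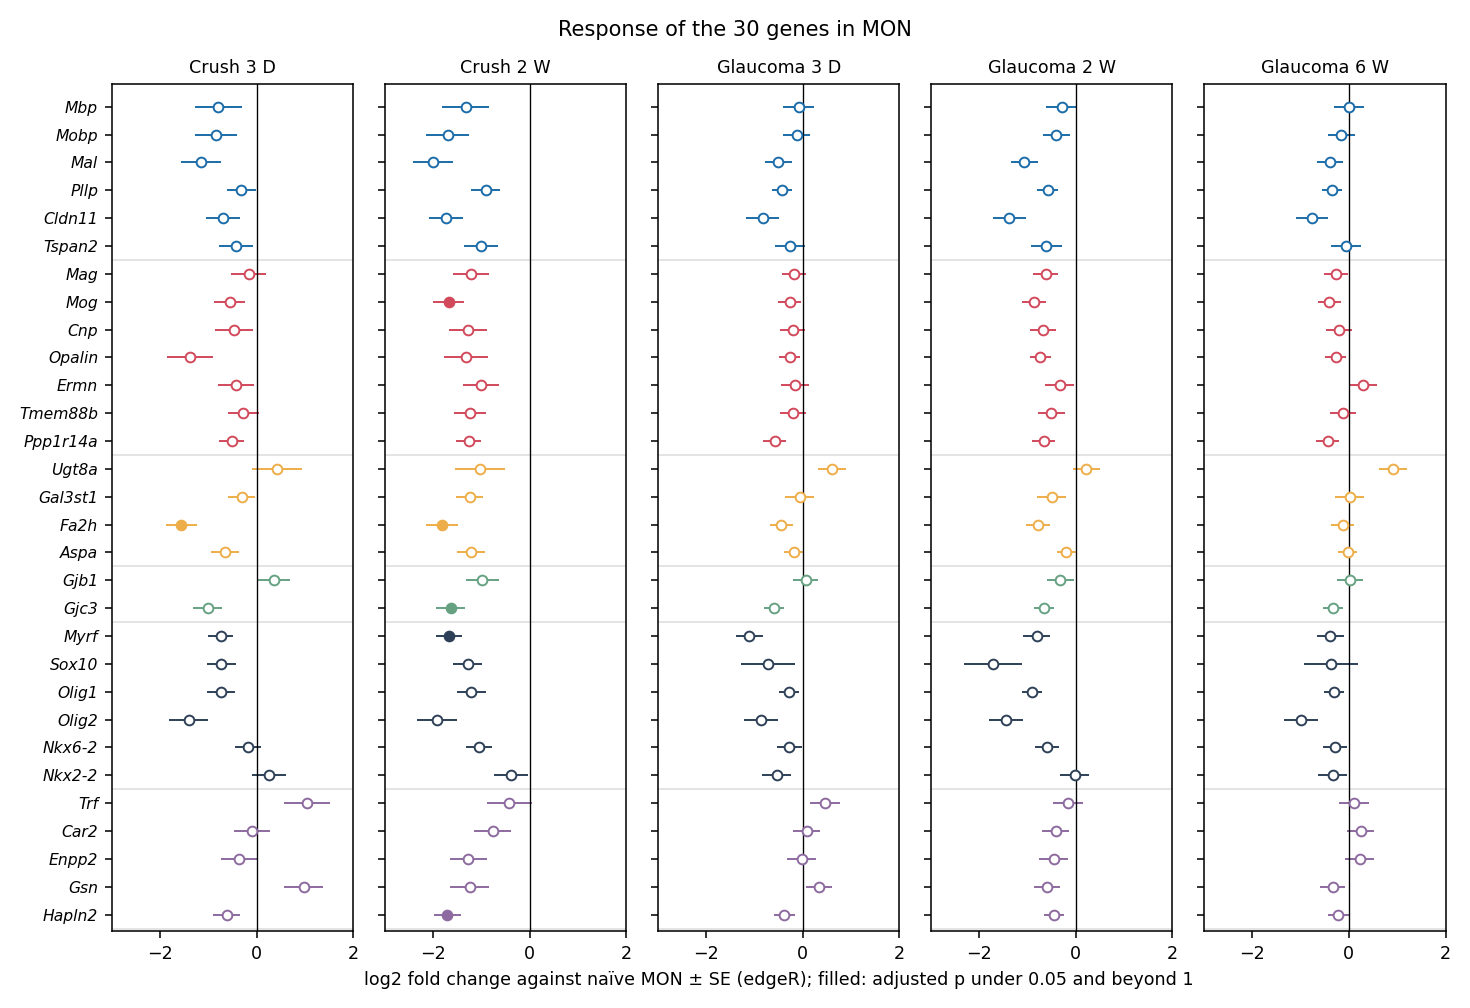
Log2 fold change of the 30 genes in MON against naïve MON at each condition, with SE, grouped and coloured by role, filled where called. At crush 2 W all 30 points lie left of 0, with 5 filled. At crush 3 D Fa2h is the filled point and Trf and Gsn lie near 1, and no point is filled in glaucoma.

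At 3 D after crush the members were less uniform. Fa2h was the member called (1 of 30 called lower, where 0.655% of all genes were, and 4.26% in either direction), at 177 and 222 CPM against 726 and 527 CPM in naïve MON (-1.56 ± 0.32, adjusted p = 0.0411). The median over the members was -0.50, 8 members had an unadjusted p under 0.05 in the lower direction (8.58% of all genes) and 1 in the higher (12.4%), and 20 of 30 lay below both naïve pools, where 29.9% of all genes did. The Fa2h call was lost without either naïve pool or without the male crush 3 D pool, and 2 members were called without the female crush 3 D pool. DESeq2 called 1 member higher, where it called 7.35% of all genes higher, and 5 lower, where it called 4.62%.

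Trf and Gsn had the highest estimates at 3 D. Trf measured 15650 and 25240 CPM at crush 3 D against 12480 and 8265 CPM in naïve MON (1.04 ± 0.47, adjusted p = 0.262), and Gsn 1947 and 3522 CPM against 1738 and 1169 CPM (0.97 ± 0.41, adjusted p = 0.237). Both genes had both crush pools above both naïve pools, and the male pool carried the higher value. Among all members, 3 of 30 lay above both naïve pools, where 23.6% of all genes did.

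Between 3 D and 2 W of crush no member was called in MON with edgeR, where 0.06% of all genes were called lower at 2 W, 14 of 30 had an unadjusted p under 0.05 in the lower direction (5.68% of all genes), and DESeq2 called 8 lower (2.44%). Both 2 W pools lay below both 3 D pools for 28 of 30, where 24.7% of all genes did. Gsn had the largest estimate, from 1947 and 3522 CPM to 523 and 636 CPM (-2.21 ± 0.42, adjusted p = 0.105), and Fa2h one of the smallest, from 177 and 222 CPM to 144 and 191 CPM (-0.25 ± 0.31, adjusted p = 0.811). Fa2h was thus near its 2 W level at 3 D, while Gsn and Trf were above theirs. Leaving out any of these 4 libraries gave 1 or 2 members called.

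Microbead glaucoma raises eye pressure and injures ganglion cell axons at the nerve head without a cut. No member was called in MON at 3 D, 2 W or 6 W with edgeR, where 0% of the 22960 genes tested were called. At 2 W the median was -0.60, 21 of 30 lay below both naïve pools, where 20.3% of all genes did, and 15 had an unadjusted p under 0.05 in the lower direction, against 3.61% of all genes. DESeq2 called 4 lower (0.729% of all genes). Olig1, which sits beside Olig2 in the genome and shares its lineage role, measured 423 and 464 CPM against 918 and 766 CPM in naïve MON (-0.91 ± 0.21, adjusted p = 0.298).

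Single libraries set some of the glaucoma values. Sox10 had the most negative estimate at glaucoma 2 W (-1.71 ± 0.60, adjusted p = 0.489), and its pools were far apart, at 181 CPM in the female and 40.9 CPM in the male pool. At 3 D the median over the members was -0.27, with 5 unadjusted p under 0.05 in the lower direction (3.19% of all genes) and 1 lower call by DESeq2 (0.528%). Myrf measured 186 and 117 CPM there (-1.11 ± 0.28, adjusted p = 0.416). At 6 W the median was -0.24, 1 member had an unadjusted p under 0.05 in each direction (2.24% of all genes in the higher and 2.67% in the lower), DESeq2 called 0, and the galactolipid enzyme Ugt8a measured 687 and 874 CPM against 317 and 476 CPM (0.91 ± 0.29, adjusted p = 0.849).

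Set side by side at 2 W, crush and glaucoma in MON differed by a median of -0.68 over the members. No member was called with edgeR (0% of 22302 genes), 18 of 30 had an unadjusted p under 0.05 in the lower direction after crush (3.94% of all genes), DESeq2 called 6 lower (0.76%), and both crush pools lay below both glaucoma pools for 27 of 30, where 22.3% of all genes did. Hapln2 had 146 and 155 CPM after crush and 332 and 438 CPM in glaucoma (-1.32 ± 0.19, adjusted p = 0.249), and its pools did not overlap. At 3 D the median difference was -0.31, no member was called with edgeR (0.00448% of all genes were called lower), 6 had an unadjusted p under 0.05 in the lower (5.03% of all genes) and 1 in the higher direction (4.77%), and DESeq2 called 1 lower (0.826%). Fa2h measured 177 and 222 CPM after crush and 427 and 524 CPM in glaucoma at 3 D (-1.17 ± 0.18, adjusted p = 0.490), and leaving out the female crush 3 D pool gave 3 members called.

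In UON the members' level was lower than in MON. No member was called there with edgeR in any of the 5 comparisons with naïve tissue, where at most 0.0281% of all genes were. The spread between pools was large. At crush 2 W the female pool exceeded the male pool for 30 of 30 members and summed to 30000 CPM against 5843 CPM, and at glaucoma 3 D the female pool again exceeded the male pool for 30 of 30, at 50050 CPM against 24980 CPM. The male crush 2 W pool was the lowest of the 12 UON libraries for 20 members and the female glaucoma 3 D pool the highest for 27. The share of all genes ordered in these ways was not computed, so these counts cannot be read as a result about the members. Fibroblast markers summed to 5661 CPM in the male and 2480 CPM in the female crush 2 W pool, and their part in the difference was not tested.

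The medians in UON had either sign. They were 0.25 at crush 3 D, -0.54 at crush 2 W, 0.80 at glaucoma 3 D, -0.93 at glaucoma 2 W and 0.44 at glaucoma 6 W. Only glaucoma 2 W had most members on one side of the naïve pools, with 26 of 30 below both, where 20.4% of all genes were. There 8 members had an unadjusted p under 0.05, all lower (1.62% of all genes), and DESeq2 called 1 lower (0.13%). Olig2 measured 0.467 and 0.245 CPM at glaucoma 2 W and 4.95 and 2.71 CPM in naïve UON (-3.40 ± 0.74, adjusted p = 1.0), and Opalin, a sialylated membrane protein of oligodendrocytes, 5.70 and 6.25 CPM against 28.1 and 19.2 CPM (-1.90 ± 0.71, adjusted p = 1.0). The study, which used DESeq2, listed Olig2 among the few genes it called in both UON and MON at glaucoma 2 W. In MON, Olig2 measured 15.8 and 17.2 CPM at that time, against 32.1 and 58.3 CPM in naïve MON. In the other 4 UON comparisons 0 to 2 members had an unadjusted p under 0.05, where 2.01% to 9.27% of all genes did. DESeq2 called no member in them.

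Later against earlier times, and crush against glaucoma, also called no member in UON with edgeR or DESeq2, with up to 3 unadjusted p under 0.05 in a comparison (crush 2 W against 3 D, all lower, where 3.69% of all genes were) and at most 0.0311% of all genes called. Leaving out the female crush 2 W pool gave 2 members called for crush 2 W against 3 D, and leaving out the male glaucoma 3 D pool gave 1 for glaucoma 6 W against 3 D. In MON, glaucoma 6 W against 3 D called none, with 1 unadjusted p under 0.05 in each direction (1.82% of all genes in the higher and 3.14% in the lower) and 0 calls by DESeq2.

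The difference between the MON and UON responses was tested directly. None of the 5 interactions called a member with edgeR, where at most 0.012% of all genes were called. The medians of MON minus UON were -0.78 at crush 3 D, -0.81 at crush 2 W, -1.05 at glaucoma 3 D, 0.53 at glaucoma 2 W and -0.63 at glaucoma 6 W, and 3, 7, 5, 1 and 0 members had an unadjusted p under 0.05, where 6.93%, 10.9%, 5.86%, 6.18% and 3.1% of all genes did. DESeq2 called 1 member at crush 2 W, lower in MON (1.19% of all genes), and 0 at the others. At crush 3 D, 7 members lay below both naïve pools in MON and above both in UON, where 3.32% of the 25011 genes tested did, namely Cldn11, Ermn, Myrf, Sox10, Nkx6-2, Tmem88b and Pllp, and of these Cldn11 had the largest interaction (-1.78 ± 0.58, adjusted p = 0.527). Without the male crush 2 W pool of UON, the library that stood apart, Hapln2 was called at crush 2 W. Without the female pool Gjb1 (2.01) and Pllp (2.35) were called with a positive sign, where all pools gave -0.43 and -0.74. Leaving out the male glaucoma 3 D pool of UON gave 4 members called at that time.

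In retina the members together summed to between 796.9 and 1281 CPM in all 12 libraries, most of it Car2. Of the 30 members 26 passed the low count filter in the crush fit and 27 in the glaucoma fit, and none was called with edgeR in any of the 5 comparisons. Of all genes, 0.0221% were called at crush 3 D (0.0176% higher and 0.00441% lower), 0.313% at crush 2 W (0.075% higher and 0.238% lower), 0.00429% at glaucoma 3 D, 0% at glaucoma 2 W and 0.00858% at glaucoma 6 W, the last 3 with lower calls or none. At crush 2 W 7 members had an unadjusted p under 0.05 in the lower direction (5.28% of all genes) and 1 in the higher (3.7%), and DESeq2 called 3 lower (0.956%). In the other 4 comparisons there were 1 to 4 such members, where 5.67% to 6.34% of all genes were, and 0 calls by DESeq2.

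Mobp came closest to a call in retina. It measured 8.53 and 8.09 CPM in the naïve female and male pools and 2.02 and 2.52 CPM at crush 2 W (-1.91 ± 0.29, adjusted p = 0.0789). The crush pools were well below the naïve pools, and the male pool of glaucoma 2 W had a like value, 2.33 CPM. Trf ran the other way. It measured 108 and 138 CPM in naïve retina and between 147 and 266 CPM in the 10 injured retinas, all above the same 2 naïve pools. Its log2 fold change at crush 2 W was 0.84 ± 0.16 (adjusted p = 0.132). In the 5 comparisons 1 to 5 members lay above both naïve pools, where 18.2% to 23.3% of all genes did. Below both naïve pools lay 4 to 12 members, where 17.2% to 21.5% of all genes did.

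**Figure D5:**
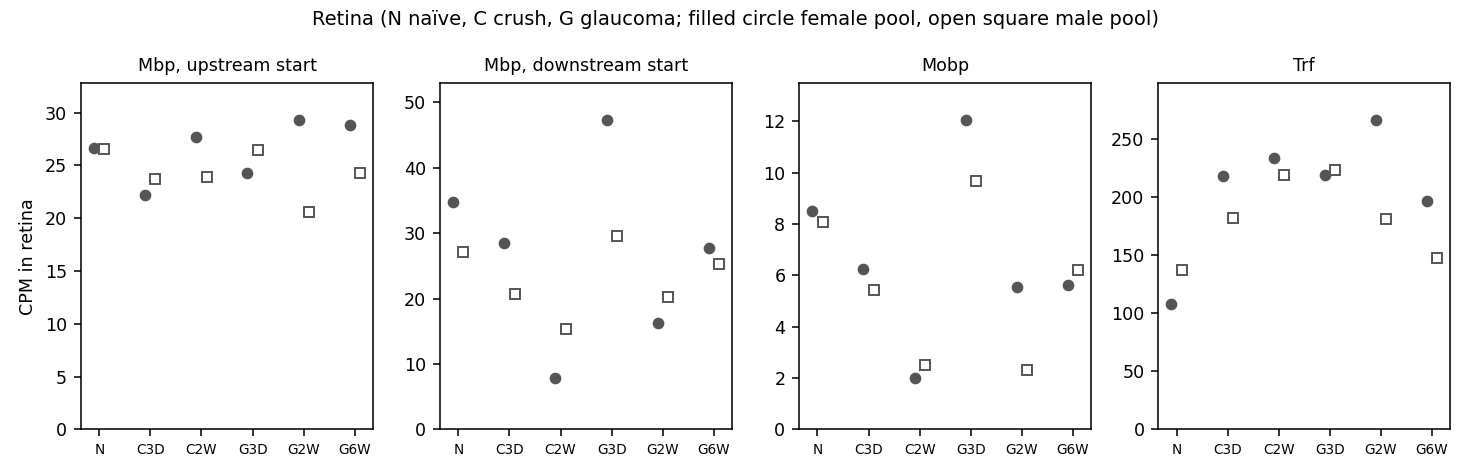
CPM in the 12 retina libraries of Mbp transcripts from the upstream start, Mbp transcripts from the downstream start, Mobp and Trf (linear axes from 0, filled circles female pools, open squares male pools). The upstream Mbp transcripts stay between 20.6 and 29.3 CPM, the downstream ones range from 7.80 to 47.3 CPM, and Mobp is near 2 CPM at crush 2 W.

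The Mbp gene has an upstream start, whose golli transcripts are known outside myelin, and a downstream start that gives the classic myelin proteins. The starts lie 79.1 kb apart, with 4 transcripts from the upstream and 12 from the downstream start. By the transcript estimates, the upstream start gave 33.9% to 78.0% of Mbp in the retinas (median 50.0%), 0.14% to 0.49% in UON and 0.185% to 0.824% in MON. In retina its level was 20.6 to 29.3 CPM in every library, with 26.7 and 26.5 CPM in the naïve pools. The downstream transcripts measured 34.7 and 27.1 CPM in naïve retina, 7.80 and 15.4 CPM at crush 2 W, 16.3 and 20.3 CPM at glaucoma 2 W and 47.3 and 29.5 CPM at glaucoma 3 D. These are estimates for overlapping transcripts and were described without a test.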

How the data were processed

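The deposited files hold, per the study's methods, paired-end reads aligned to GRCm38 with HISAT2 2.2.1 and assembled with StringTie 1.3.0 on Gencode M25. The gene and transcript tables are estimated counts the authors derived from StringTie's coverage, and the FPKM values per library are the authors' own, so reads shared by similar transcripts were divided by the assembler.

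From the deposited counts, CPM (with TMM factors) and the tests were computed with edgeR 4.0.16 in R 4.3.3: a quasi-likelihood F test on each tissue and treatment with its naïve pools, a term for the sex of the pool, and genes kept by filterByExpr (minimum count 10, minimum total 15). A gene was called at a Benjamini-Hochberg adjusted p under 0.05 over all genes tested and a log2 fold change beyond 1. Naïve tissues were fitted together, crush and glaucoma of a tissue were compared directly, and MON minus UON responses as an interaction, 31 comparisons in all. FPKM served to order genes. DESeq2 1.42.0, RLE size factors, no low count filter, no sex term, one fit of all 36 libraries, and leaving out each pool were alternatives fixed in the design, and scaling without the members was added after seeing the data. The code of the MON crush fit was also run on simulated counts. Their spread between libraries was smaller than in the data, and the planted changes were large. That run checked the code and cannot give the power or the rate of false calls of these tests.

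The members and gene lists were chosen with earlier results of these data known. All members are named, in role groups, and among the 35 other oligodendrocyte genes the largest call in each direction, except that some genes of the lists are not reported here. Other genes of the lists are shown as examples chosen after their values were seen. The same mice gave all 3 tissues. The sex term joins pools of the same mice in the naïve fit and pools of different mice in the fits within a tissue, and a term for each mouse pool was the alternative for the interactions. Over 11041 genes the female minus male log2 differences of UON and MON correlated with r between -0.0105 and 0.290. Depth was 16158723 to 78054205 counts a library, which limits the lowest members in retina. Read depth covers counting error only, and no columns of other samples were present.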

Additional observations from a re-analysis of the deposited data

Results flagged for a closer look

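Both values below come from the transcript estimates, which no comparison of the report tests. Transcripts from the upstream start of Mbp made up a median of 50.0% of the Mbp transcript counts over the 12 retina libraries, from 33.9% to 78.0%, against at most 0.824% in any nerve library. The transcript Mag-201 made up 45.9% of the Mag transcript counts in the male pool of MON crush 3 D, where Mag-203 made up 25.1%, while Mag-203 made up 68.7% to 95.1% in the other 11 MON libraries. In UON Mag-201 was also the larger part in some libraries, at 76.9% and 64.6% in glaucoma 3 D and 88.6% in the male pool of glaucoma 2 W. No group held enough pools for a test of single outlying libraries.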

How the results depend on the processing

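With 2 pools a group the residual degrees of freedom were few. Of the 9730 values for single members under the alternatives, 124 newly passed the threshold, 33 no longer did and 2 passed it in the other direction. In all 701 had the other sign, 615 of them with a pool left out. Of the 701, 326 were in UON comparisons and 0 in the naïve ones, and the 2 above were the only ones called. Leaving out 1 pool leaves a lone pool that is assumed to vary like the other groups, and the values below come as ranges over the pools left out. Apart from DESeq2, whose shares are given above, the share of all genes called is not given for these alternatives. A changed count of members therefore cannot be told apart from a change in calls over all genes.

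For crush 2 W in MON (5 called) the counts were 25 with DESeq2, 14 with no replicate block (no term for sex), 13 with no low count filter, 8 with RLE size factors, 1 in the fit of all 36 libraries and 0 to 18 without 1 pool. For crush 3 D in MON (1 called) they were 6 with DESeq2, 3 with no filter, 0 in the fit of all libraries and 0 to 2 without 1 pool. For crush 2 W against 3 D in MON (0 called) they were 8 with DESeq2, 3 with no filter, 1 in the fit of all libraries and 1 to 2 without 1 pool.

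Of the other comparisons with 0 called, DESeq2 called 6 for crush against glaucoma in MON at 2 W and 1 at 3 D, 4 for glaucoma 2 W and 1 for glaucoma 3 D in MON, 3 for crush 2 W in retina, 1 for glaucoma 2 W in UON and 1 for the crush 2 W interaction. With no filter 1 was called for crush 2 W in retina, 2 for the crush 3 D and 4 for the crush 2 W interaction, and with no replicate block 1 for crush 2 W in retina. Leaving out 1 pool gave 0 to 1 for glaucoma 2 W in MON, crush 2 W in retina and glaucoma 6 W against 3 D in UON, 0 to 2 for crush 2 W against 3 D in UON and for the crush 2 W interaction, 0 to 3 for crush against glaucoma in MON at 3 D, and 0 to 4 for the glaucoma 3 D interaction. Without 1 pool, 27 to 29 members were called between naïve MON and UON (29 with all pools) and 29 to 30 for either nerve region against retina. Without the female crush 2 W pool of UON the interaction turned positive and was called for Gjb1 (2.01, adjusted p = 0.0256) and Pllp (2.35, adjusted p = 0.00906), where all pools gave -0.43 and -0.74 and leaving out the male pool gave -1.60 and -1.87. With the female pool left out, the male pool that stood apart is the one crush 2 W pool of UON in the fit. The replicate block of the mouse pool changed no interaction call, and scaling without the members, chosen after seeing the data, changed no count. The cause of these differences was not tested.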

Other observations

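Enpp2, the gene of autotaxin, had the same leading transcript in retina and UON and another in most MON libraries. The transcript that led in retina made up 79.2% to 97.2% of the Enpp2 transcript counts in the 12 retinas and a median of 79.5% in UON, where the female pool of crush 3 D was at 8.23% and the male pool of crush 2 W at 38.2%. In MON it made up 4.08% and 4.18% in the naïve pools, 50.8% and 50.9% at crush 3 D, 58.6% and 20.2% at crush 2 W, and 2.65% to 8.93% in glaucoma. Gsn was also split over starts 25.9 kb apart, and the upstream start gave 3.93% to 73.7% of its counts in MON and 4.34% to 84.4% in UON. These shares were not tested.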
